A study of Mus musculus with 9 samples.

Results

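Small nucleolar RNAs (snoRNAs) and small Cajal body RNAs (scaRNAs) were examined in mouse liver after antisense oligonucleotide (ASO) treatment against apoC-III. They were taken as every gene of the deposited table whose symbol begins with Snord, Snora or Scarna followed by a digit. This gave 149 of the 51912 genes listed, made up of 99 C/D box snoRNAs (Snord), 41 H/ACA box snoRNAs (Snora) and 9 Cajal body RNAs (Scarna). Liver RNA came from 9 mice of the genotype Apoe-/- Ndst1 f/f Alb-Cre+, all fasted, 5 given the apoC-III ASO and 4 given a control ASO, each at 50 mg/kg/week for 8 weeks. Every mouse of both groups thus lacked apoE and carried floxed alleles of Ndst1, a heparan sulfate sulfotransferase, with Cre driven by the albumin promoter, which is active in hepatocytes. Whether liver cells other than hepatocytes keep Ndst1 was not examined here. The age of the mice and the diet used for the RNA sequencing are not given in the sources used here.

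C/D box snoRNAs pair with ribosomal RNA (rRNA) and guide its 2′-O-methylation by fibrillarin, and H/ACA box snoRNAs guide pseudouridylation by dyskerin. Cajal body RNAs use the same boxes, alone or combined, to guide modification of spliceosomal RNAs in Cajal bodies. A few snoRNAs act instead in cutting the rRNA precursor. In mammals most of these RNAs lie in introns of host genes and are released when the host transcript is spliced and trimmed.

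The boxes were looked for in the annotated sequences, all of which matched GENCODE M21 (GRCm38). TGATGA within the first 20 bases together with CTGA within the last 20 bases, on the RNA's own strand, stood for the C and D boxes, and ACA exactly 3 bases before the 3′ end stood for the ACA box. Both C/D motifs were found in 68 of 99 C/D box RNAs (68.7%), in 0 of 41 H/ACA box RNAs and in 4 of 9 Cajal body RNAs, against 8 of 10363 other genes (0.0772%) with 1 transcript in the same length range. The ACA was found in 34 of 41 H/ACA box RNAs (82.9%), in 0 of 99 C/D box RNAs and in 2 of 9 Cajal body RNAs, against 190 of those other genes (1.83%). The labels by symbol and the sequence features thus went together in most RNAs, and a missing match says only that these letters were not in the window.

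The RNAs that were measured at all are shown first, because the results rest on them. Capitals mark the C box match, the D box match or the ACA, sequences run 5′ to 3′, and positions are in GRCm38. Snord17 is at chr2:144265979-144266216 on the minus strand, Scarna6 at chr1:87784556-87784820 on the plus strand and Scarna13 at chr12:105031075-105031349 on the minus strand.
Snord17: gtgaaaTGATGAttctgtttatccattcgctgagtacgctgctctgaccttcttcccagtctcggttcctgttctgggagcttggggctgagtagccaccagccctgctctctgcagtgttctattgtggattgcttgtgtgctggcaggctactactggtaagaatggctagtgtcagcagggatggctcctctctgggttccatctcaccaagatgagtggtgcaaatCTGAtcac
Scarna6: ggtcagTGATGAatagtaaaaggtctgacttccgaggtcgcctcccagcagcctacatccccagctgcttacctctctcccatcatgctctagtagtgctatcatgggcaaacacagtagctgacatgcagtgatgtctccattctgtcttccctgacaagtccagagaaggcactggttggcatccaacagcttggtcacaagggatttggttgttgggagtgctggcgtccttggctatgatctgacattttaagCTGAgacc
Scarna13: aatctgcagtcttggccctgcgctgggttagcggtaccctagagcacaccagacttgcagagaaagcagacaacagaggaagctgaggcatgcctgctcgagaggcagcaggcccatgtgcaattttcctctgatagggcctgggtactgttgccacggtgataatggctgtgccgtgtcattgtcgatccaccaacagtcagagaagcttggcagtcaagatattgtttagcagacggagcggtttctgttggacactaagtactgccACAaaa

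Among the H/ACA box RNAs, Snora73a is at chr4:132352775-132352979 and Snora73b at chr4:132352322-132352526, both on the minus strand, and Snora23 is at chr7:110046364-110046547 on the plus strand. Snora73a and Snora73b are copies of the U17 snoRNA, each 205 nt long and 96.6% identical. They differ at 7 positions counted from the 5′ end, with the base of Snora73a first: G3A, G54A, A111G, T164C, G203A, T204A and T205A.
Snora73a: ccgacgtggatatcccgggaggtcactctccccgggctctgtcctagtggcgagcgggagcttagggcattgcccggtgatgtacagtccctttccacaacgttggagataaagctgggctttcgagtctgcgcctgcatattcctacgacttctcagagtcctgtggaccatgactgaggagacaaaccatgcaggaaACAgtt
Snora73b: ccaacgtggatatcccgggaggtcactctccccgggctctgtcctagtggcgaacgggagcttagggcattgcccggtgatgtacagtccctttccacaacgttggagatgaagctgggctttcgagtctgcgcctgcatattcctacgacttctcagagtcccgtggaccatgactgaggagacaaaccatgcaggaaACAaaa
Snora23: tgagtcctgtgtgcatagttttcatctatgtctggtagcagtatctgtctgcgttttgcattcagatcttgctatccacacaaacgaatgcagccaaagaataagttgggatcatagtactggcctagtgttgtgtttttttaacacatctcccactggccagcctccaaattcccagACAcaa

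The other 2 RNAs above 0, Scarna2 at chr3:108554338-108554751 and Scarna10 at chr6:125186359-125186683, both on the minus strand, are 414 and 325 nt long and are not printed. For comparison, the 4 C/D box RNAs from introns of Rpl13a, which have been tied to lipid-induced cell stress, are 70 to 90 nt long. They lie on the minus strand at chr7:45127382-45127464 (Snord32a), chr7:45126864-45126947 (Snord33), chr7:45126601-45126670 (Snord34) and chr7:45126346-45126435 (Snord35a), and all 4 were listed at 0 in every liver.
Snord32a: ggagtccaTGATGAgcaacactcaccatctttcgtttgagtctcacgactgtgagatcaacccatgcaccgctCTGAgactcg
Snord33: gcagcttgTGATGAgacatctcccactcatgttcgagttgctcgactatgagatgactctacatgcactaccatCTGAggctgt
Snord34: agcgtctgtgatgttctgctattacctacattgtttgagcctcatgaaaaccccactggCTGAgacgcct
Snord35a: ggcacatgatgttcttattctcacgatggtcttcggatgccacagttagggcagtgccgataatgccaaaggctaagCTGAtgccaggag

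Values were deposited as transcripts per 1000000 (TPM), which correct the reads of a gene for length and scale each liver to the same total. How deeply each liver was sequenced cannot be read from TPM and is unknown, so intervals for counting error are not given. The target of the ASO, Apoc3, averaged 23.5 ± 8.12 TPM (SD, n = 5) with its ASO and 174 ± 96.1 TPM (SD, n = 4) with the control ASO, which is 86.5% lower, with no overlap (p = 0.0159 by a two-sided exact permutation test, which can go no lower with 5 against 4). Hepatocyte markers summed to 1080 to 3840 TPM with the apoC-III ASO and to 394 to 3034 TPM with the control ASO. Marker sums of Kupffer, sinusoidal endothelial, stellate, cholangiocyte and lymphocyte lists did not exceed 8.09 TPM in any liver, and erythroid markers reached 40.6 TPM in an apoC-III ASO liver and 17.7 TPM in a control ASO liver. None of the markers was at 0 in all livers. The copies of 7SL RNA took 64.0% to 83.6% of the TPM and nuclear protein-coding genes 1.94% to 8.64%. Control ASO replicate 4 stood apart, with a median-of-ratios factor, which compares the typical gene between livers, of 0.213 against 0.627 to 1.78 in the other livers.

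Of the 149 RNAs, 8 were above 0 in at least 1 liver and 141 were listed at 0 in all 9. Those above 0 were 1 of 99 C/D box RNAs (Snord17), 3 of 41 H/ACA box RNAs (Snora73a, Snora73b and Snora23) and 4 of 9 Cajal body RNAs (Scarna2, Scarna6, Scarna10 and Scarna13). Every liver had 1 C/D box RNA and 4 Cajal body RNAs above 0. Every liver also had 2 H/ACA box RNAs above 0, except apoC-III ASO replicates 3 and 4, which had 3. The number above 0 therefore barely varied between livers, and control ASO replicate 4 had as many as the other control ASO livers.

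The zeros followed annotated length. The 8 RNAs above 0 were 184 to 414 nt long, whereas the C/D box RNAs had a median length of 84 nt (64 to 238 nt), the H/ACA box RNAs of 132 nt (121 to 205 nt) and the Cajal body RNAs of 140 nt (70 to 414 nt). No RNA of 150 nt or fewer was above 0, which takes in 98 C/D box, 36 H/ACA box and 5 Cajal body RNAs. Snord17 was the only C/D box RNA over 150 nt, and the 4 Cajal body RNAs over 150 nt were the 4 above 0. Among H/ACA box RNAs 5 were over 150 nt, of which Snora81 (178 nt) and Snora74a (196 nt) were listed at 0.

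The same limit held in the whole table. Of the 5872 genes with 1 annotated transcript of 150 nt or fewer, 0 were above 0 in any liver. The share above 0 was 0.599% (3 of 501 genes) at 151 to 175 nt, 6.55% (19 of 290) at 176 to 200 nt, 12.6% (90 of 717) at 201 to 250 nt, 14.6% (154 of 1056) at 251 to 300 nt and 22.5% (1136 of 5057) at 301 to 500 nt. The shortest such gene above 0 was the pseudogene Rpl39-ps, at 151 nt.

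**Figure D1:**
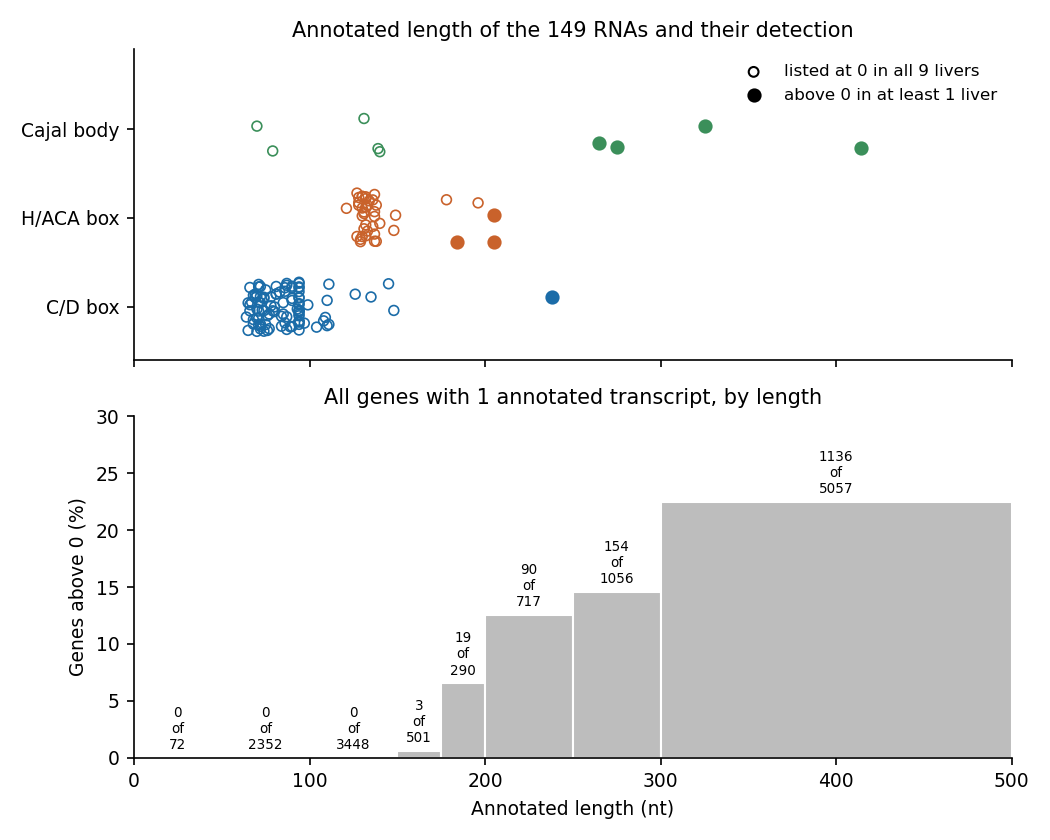
The upper panel places the 149 RNAs by annotated length in nt and by class, with filled points for RNAs above 0 in at least 1 of 9 livers and open points for RNAs listed at 0 in all of them (vertical scatter within a class has no meaning). The lower panel gives, as bars, the percent of all genes with 1 annotated transcript that were above 0, by length class with the counts written above; no gene of 150 nt or fewer was above 0, and the 8 filled points lie from 184 to 414 nt.

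RNAs that every cell uses were among those zeros. All 4 genes of U1 (164 to 166 nt), both genes of U6 (107 nt), all 181 genes of 5S rRNA and all 22 mitochondrial tRNA genes were listed at 0 in every liver. U2 (191 nt) reached 2.13 TPM. The longer noncoding RNAs 7SK (331 nt) and RNase MRP RNA (271 nt) reached 9052 and 96.2 TPM. A listed 0 is therefore no measure of whether a short RNA was present, and no comparison between the groups could be made for 141 of the 149 RNAs. RNA was purified on RNeasy columns, according to the labels, and the libraries were depleted of rRNA, of which 5S is one. The part of these steps and of the quantification in the zeros was not tested.

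Shared sequence was also examined, as the share of 31-base words of each RNA found in the transcripts of no other GENCODE M21 gene. Of the 149 RNAs, 73 had no such word of their own (51 C/D box, 22 H/ACA box and 0 Cajal body RNAs), because their bases also stand in transcripts of other genes. The 2 RNAs over 150 nt that were listed at 0, Snora81 and Snora74a, had 0% of their words to themselves. Below that length RNAs with and without words of their own were listed at 0 alike, among them 47 with all of their words to themselves.

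RNAs listed for a role in rRNA processing or lipid handling were mostly among the zeros. In a list of 9 RNAs that act in rRNA processing, 7 were listed at 0, namely Snord13, Snord14a, Snord14c, Snord14d, Snord14e, Snord22 and Snord118 (the U8 snoRNA), which are 86 to 135 nt long. Snora73a and Snora73b were the others. In a list of 7 RNAs tied to lipid handling, 5 were listed at 0, namely the 4 Rpl13a RNAs and Snord60 (78 nt), which has been tied to cholesterol trafficking. The other members of that list were again Snora73a and Snora73b, since U17 has been tied to cholesterol movement to mitochondria as well.

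The measured RNAs differed widely in level. By mean TPM in control ASO livers the order was Snord17 (239), Scarna13 (156), Snora73b (45.5), Snora73a (25.6), Scarna2 (18.4), Scarna6 (12.3) and Scarna10 (12.05). The ranges of neighbors in this order overlapped between livers. The settings of the length correction are not given in the sources used here, so the order among RNAs of unlike length is uncertain. The bases of Snord17, Scarna2, Scarna6 and Snora23 were 100% their own by 31-base words, and those of Scarna13 were 85.7% their own. The share was 54.9% for Snora73b and 14.9% for Snora73a, which share words with each other and with Snhg3. It was 14.2% for Scarna10, which shares words with its host Ncapd2 and with Gm28967, so that levels of these 3 RNAs depend on how reads were divided.

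The question was whether any of these RNAs differed between apoC-III ASO and control ASO livers. None of the 7 RNAs tested was called. They are those with a mean of at least 1 TPM. The test was limma-trend over log2(TPM + 1), and a call needed an adjusted p (Benjamini-Hochberg) below 0.05 with a difference of more than 1.5-fold. With TPM as deposited and all livers, each SE was set by the trend over all genes at a like level. The scatter of an RNA's own values did not enter it, so these SE and p do not measure the spread of a single RNA. Over all genes tested 11 of 4936 were called (0.223%) in either direction. Apoc3, the target of the ASO, was not among them (log2 difference -2.62, SE 0.73). Its unadjusted p was 3.04e-04 and its adjusted p 0.104 from limma-trend. The lack of a call therefore does not show that an RNA was unchanged. Of the 7, 1 (Scarna6) had an unadjusted p under 0.05, as had 99 of the 4936. All 7 had a higher fitted level on the apoC-III ASO, beside 3493 of the 4936 genes, and every adjusted p was 1.0. A median-of-ratios scaling moved the median log2 difference of all genes from 0.11 to -0.019, and it turned Scarna10 and Snora73b to a lower fitted level on the apoC-III ASO.

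**Figure D2:**
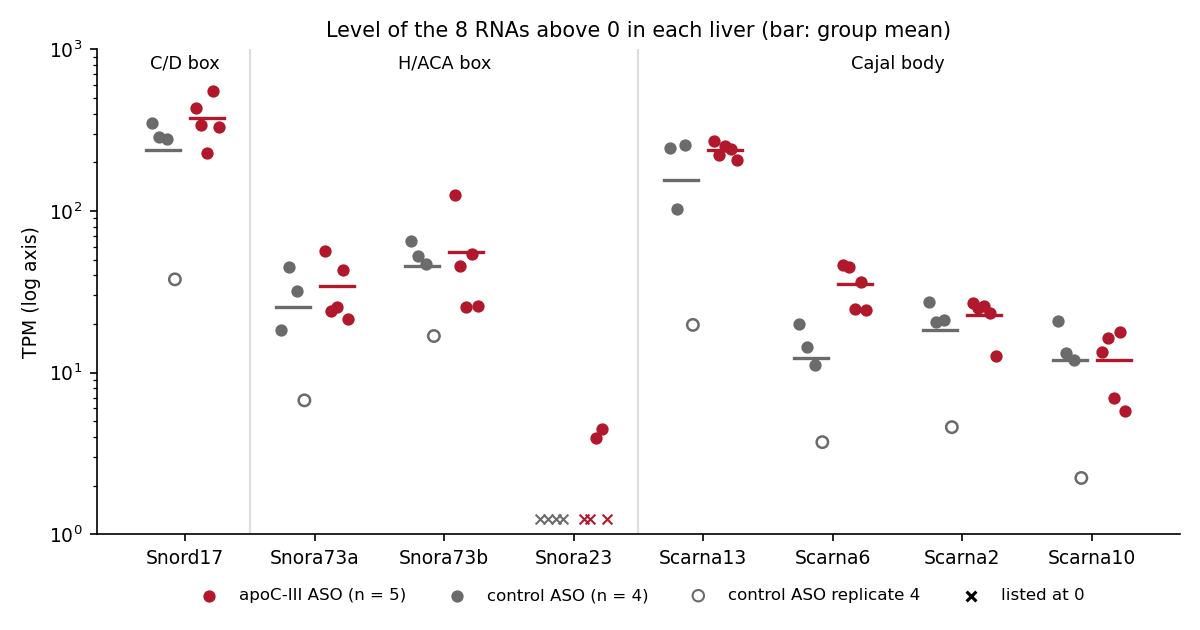
Each point is the TPM of one RNA in one liver, on a log axis, for the 8 RNAs above 0, with apoC-III ASO livers in red (n = 5), control ASO livers in gray (n = 4), control ASO replicate 4 open, group means as horizontal bars and values of 0 as crosses near the axis. Control ASO replicate 4 is the lowest liver for each of the 7 RNAs measured everywhere, and the groups are apart only for Scarna6, where the lowest apoC-III ASO liver has 24.2 TPM and the highest control ASO liver 20.1 TPM.

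Snord17, which lies in Snx5 and guides methylation of rRNA of the large subunit, was the only C/D box RNA measured. It had 434, 340, 230, 549 and 330 TPM in apoC-III ASO replicates 1 to 5 and 351, 287, 279 and 37.7 TPM in control ASO replicates 1 to 4. The groups overlapped, and control ASO replicate 4 was far below every other liver. The log2 difference was 0.99 (SE 0.68, unadjusted p = 0.146 and adjusted p = 1.0 from limma-trend). Without that liver it was 0.25 (SE 0.42). The coefficient of variation among control ASO livers was 57.7%, and 12.8% without replicate 4. Its host Snx5, a sorting nexin, had 4.57 ± 1.44 TPM on the apoC-III ASO (SD, n = 5) and 4.78 ± 2.73 TPM on the control ASO (SD, n = 4), with a log2 difference of 0.057.

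Among H/ACA box RNAs, Snora73a had 56.5, 24.1, 25.3, 43.0 and 21.6 TPM in apoC-III ASO livers and 18.3, 45.3, 31.9 and 6.73 TPM in control ASO livers. Snora73b, its neighbor within the spans of Snhg3 and Rcc1, had 125.6, 45.5, 25.3, 54.4 and 25.9 TPM and 65.4, 52.8, 46.9 and 16.8 TPM in the same order. Both pairs of groups overlapped, with log2 differences of 0.58 (SE 0.69) for Snora73a and 0.17 (SE 0.72) for Snora73b. The value of Snora73b in apoC-III ASO replicate 1 was more than any other liver had, and Snora73a was also highest there. In every liver the ratio of Snora73b to Snora73a was a fraction of whole numbers of at most 25, so few reads may lie behind these values, and read counts were not used here. Snhg3, a host whose spliced RNA codes for no known protein, was at 0.769 ± 0.473 TPM (SD, n = 5) and 1.24 ± 0.487 TPM (SD, n = 4). Rcc1 went the other way, at 0.852 ± 0.538 TPM (SD, n = 5) and 0.415 ± 0.174 TPM (SD, n = 4). Neither host was tested.

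Snora23, in the nuclear import gene Ipo7, guides pseudouridylation of rRNA of the large subunit. It was listed at 3.94 TPM in apoC-III ASO replicate 3, at 4.46 TPM in replicate 4 and at 0 in the other 7 livers. It was the shortest RNA above 0, at 184 nt, and its mean of 0.934 TPM was under the minimum for testing. Since a listed 0 is no measure of absence, no fold is given. Ipo7 itself had a log2 difference of 0.093.

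Scarna6 (U88, in Atg16l1, a gene of autophagy), which carries both kinds of box, was the only RNA whose groups did not overlap. It had 46.4, 45.3, 24.8, 36.6 and 24.2 TPM in apoC-III ASO livers and 20.1, 14.3, 11.2 and 3.71 TPM in control ASO livers. Every apoC-III ASO liver was thus above every control ASO liver, as were those of 9 of 4936 genes in that direction (0.182%). The mean was 2.87 times as high, at 35.5 ± 10.7 TPM (SD, n = 5) against 12.3 ± 6.83 TPM (SD, n = 4). The log2 difference was 1.59 (SE 0.68), with an unadjusted p of 0.0187 and an adjusted p of 1.0 from limma-trend, so it was not called. In bulk liver, more cells of a type and more RNA per cell cannot be told apart.

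The test of Scarna6 changed with the scaling used. Under median-of-ratios scaling its values were 24.2 to 38.6 with the apoC-III ASO and 9.67 to 17.4 with the control ASO, again with no overlap, as in 43 of 4503 genes in that direction (0.955%). The log2 difference was then 1.30 (SE 0.23, unadjusted p = 1.91e-04 and adjusted p = 0.167 from limma-trend), and 1 of 4503 genes was called higher (0.0222%). Scarna6 was not called after rescaling without 7SL and mitochondrial rRNA (log2 difference 1.88, adjusted p = 0.302 from limma-trend). It was called in 3 other settings, the last of which was chosen after seeing the data. These were division by the summed TPM of nuclear protein-coding genes (log2 difference 1.75, adjusted p = 0.0174 from limma-trend, 2 of 4595 genes called higher, 0.0435%), quantile normalization (1.42, adjusted p = 0.0431, 2 of 4936, 0.0405%) and median-of-ratios scaling without control ASO replicate 4 (1.47, adjusted p = 0.0494, 2 of 4472, 0.0447%). Over all 26 settings the log2 difference ranged from 1.15 to 1.88 and the adjusted p from 0.0174 to 1.0. Without control ASO replicate 4 and with TPM as deposited it was 1.15 (adjusted p = 0.811 from limma-trend).

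**Figure D3:**
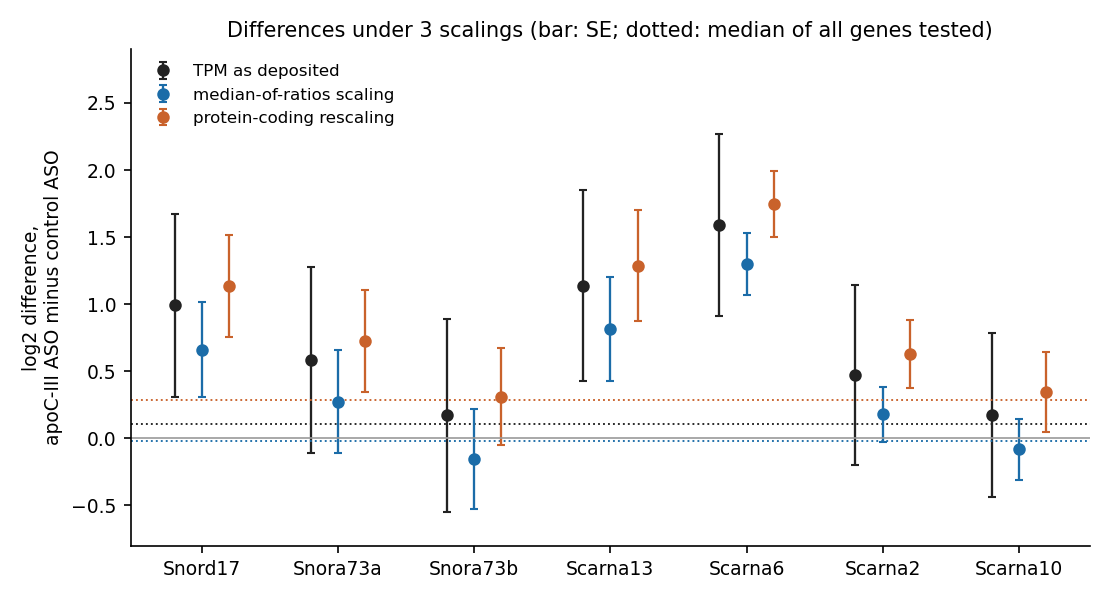
Points give the log2 difference of the 7 tested RNAs, apoC-III ASO minus control ASO, with SE bars, for TPM as deposited (black), median-of-ratios scaling (blue) and protein-coding rescaling (orange), and dotted lines give the median of all genes tested on each scale. Scarna6 has the highest difference on all 3 scales (1.59, 1.30 and 1.75), while Snora73b and Scarna10 fall on either side of 0 depending on the scaling.

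The host of Scarna6 was compared because reads of an intronic RNA and of its host come from one transcription unit. Atg16l1 had 2.69 ± 1.09 TPM on the apoC-III ASO (SD, n = 5) and 2.40 ± 1.52 TPM on the control ASO (SD, n = 4), with a log2 difference of 0.23. The ratio of Scarna6 to Atg16l1 within a liver was 10.5 to 16.6 on the apoC-III ASO and 4.72, 4.72, 5.18 and 11.8 in control ASO livers, where replicate 4 was the highest and overlapped the other group. Ratios of 2 RNAs in one liver do not change when that liver is multiplied by a scaling factor. The ratio of Scarna6 to Scarna2 was 0.964 to 1.91 against 0.529 to 0.808, and that to Scarna10 was 2.06 to 4.21 against 0.937 to 1.67, both with no overlap. The ratios to Scarna13 (0.0980 to 0.204 against 0.0435 to 0.188) and to Snord17 (0.0666 to 0.133 against 0.0400 to 0.0984) overlapped. These ratios were chosen after the values of Scarna6 were seen and carry no test.

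**Figure D4:**
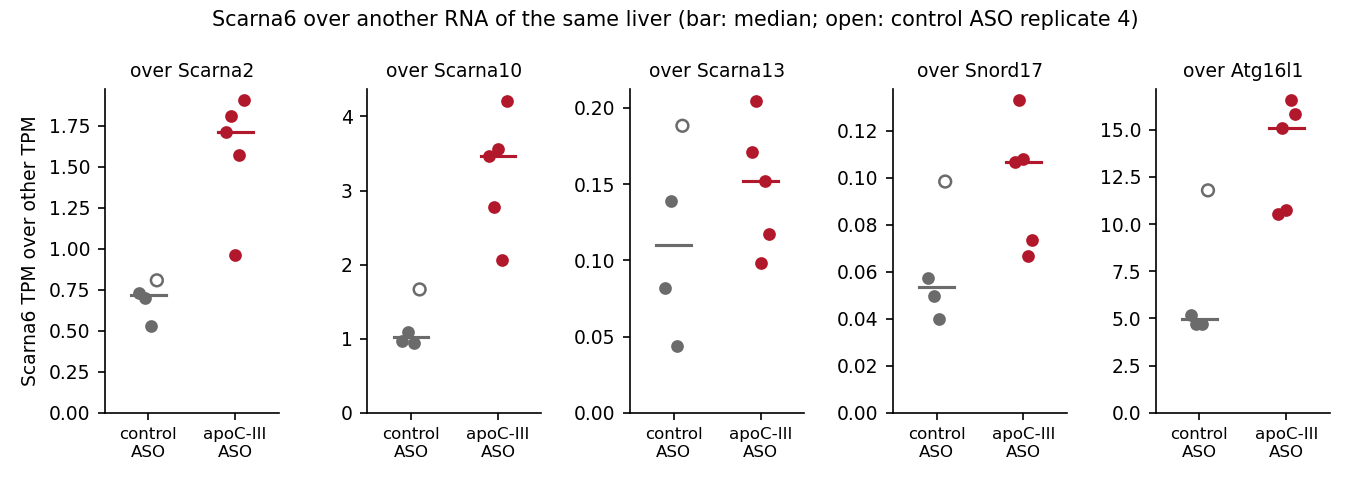
Each panel gives the TPM of Scarna6 divided by that of another RNA of the same liver, from a linear axis starting at 0, with control ASO livers in gray (n = 4, replicate 4 open), apoC-III ASO livers in red (n = 5) and medians as bars. The groups are apart for the ratios to Scarna2 and Scarna10 and overlap for those to Scarna13, Snord17 and the host Atg16l1, where control ASO replicate 4 is the highest control ASO liver.

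The other Cajal body RNAs overlapped between groups. Scarna13 (U93), made of H/ACA units, had 271, 222, 253, 240 and 206 TPM in apoC-III ASO livers and 246, 103, 257 and 19.7 TPM in control ASO livers, with a log2 difference of 1.14 (SE 0.71), or 0.34 (SE 0.43) without control ASO replicate 4. Scarna2, a C/D guide of the spliceosomal RNA U2 with no host gene on its strand, had 27.0, 24.999, 25.7, 23.2 and 12.7 TPM and 27.4, 20.5, 21.1 and 4.60 TPM, with a log2 difference of 0.47 (SE 0.67). Scarna10 (U85), which guides both kinds of modification of U5, had 13.4, 16.3, 6.96, 17.8 and 5.76 TPM and 20.9, 13.2, 11.9 and 2.23 TPM, with a log2 difference of 0.17 (SE 0.61). In the apoC-III ASO group Scarna13 had a coefficient of variation of 10.7% in TPM and of 31.5% after median-of-ratios scaling. Hosts of Scarna10 and Scarna13, Ncapd2 and Snhg10 (named AC140477.3 in the table), had means under 1 TPM in both groups and were not tested.

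Control ASO replicate 4 was the lowest liver for all 7 RNAs, at 0.0976 (Scarna13) to 0.306 (Snora73b) of the mean of the other 3 control ASO livers. After median-of-ratios scaling it was at 0.636 (Scarna13) to 2.04 (Snora73b) of that mean. Without it and with TPM as deposited, the log2 differences of Scarna10, Snora73b and Scarna2 were negative (-0.40, -0.24 and -0.049), that of Snora73a was 0.085, and those of Snord17, Scarna13 and Scarna6 were 0.25, 0.34 and 1.15. What part this library has in the differences was not tested further.

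By class, summed TPM was 377 ± 121 (SD, n = 5) on the apoC-III ASO and 239 ± 138 (SD, n = 4) on the control ASO for the C/D box, which is Snord17 alone. It was 91.1 ± 55.0 and 71.1 ± 32.7 for the H/ACA box, and 309 ± 38.8 and 199 ± 135 for the Cajal body RNAs. The ranges of the groups overlapped in all 3 classes. The median log2 difference of the RNAs tested was 0.99 for the C/D box (1 RNA), 0.38 for the H/ACA box (2) and 0.81 for the Cajal body RNAs (4), beside 0.11 over all genes tested. Without control ASO replicate 4 they were 0.25 for the C/D box and 0.15 for the Cajal body RNAs, beside -0.23. Snora73a and Snora73b then had 0.085 and -0.24. No H/ACA box median is given for that setting, because Snora23 then passed the minimum only through 2 apoC-III ASO livers. With median-of-ratios scaling the medians of the 3 classes were 0.66, 0.06 and 0.50, beside -0.019.

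The proteins that carry these RNAs were few among the genes tested. Of the C/D core proteins 3 were tested, 2 with a higher and 1 with a lower fitted level, and none was called. With median-of-ratios scaling 1 was higher and 2 were lower. Fbl, the methyltransferase fibrillarin, had 3.14 ± 1.49 TPM on the apoC-III ASO (SD, n = 5) and 1.21 ± 0.554 TPM on the control ASO (SD, n = 4), with a log2 difference of 0.86 (SE 0.42, unadjusted p = 0.0413 and adjusted p = 1.0 from limma-trend). Nop56, a scaffold of the C/D particle, had a log2 difference of 0.16 (SE 0.52). The H/ACA core proteins (Dkc1, Nhp2, Nop10 and Gar1) had means of 0.172 to 0.887 TPM and none was tested, and the Cajal body proteins, among them coilin (Coil, 0.126 TPM) and Wrap53 (0.280 TPM), were not tested either. Pih1d1, the only assembly factor tested, had a log2 difference of -0.0016 (SE 0.39), and Pabpn1, the only tested gene of snoRNA processing and turnover, had 0.56 (SE 0.64).

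Host genes had levels where most RNAs inside them were listed at 0. These levels are not always apart from the RNAs inside. All words of Snora81 also stand in transcripts of its host Eif4a2, and all words of Snord22 in those of Snhg1. Other RNAs, such as Snord32a in Rpl13a, had all of their words to themselves. Reads of an RNA that shares its words could be assigned to its host, and how far this happened was not tested. By position on the same strand 141 of the 149 RNAs lay in a host gene, 17 of them in Snhg14, 4 in Rpl13a and 4 in the noncoding Gas5. Of 96 such hosts 94 were in the table and 60 were tested, 42 with a higher and 18 with a lower fitted level, and 0 were called; 1 had an unadjusted p under 0.05. With median-of-ratios scaling 22 were higher and 37 lower of 59 tested. The median log2 difference of the hosts was 0.11, as over all genes tested, and -0.047 with median-of-ratios scaling. In a list of hosts written for this work 21 were tested, 18 with a higher and 3 with a lower fitted level and 0 called; with median-of-ratios scaling 11 were higher and 11 lower of 22 tested. Snhg1, a noncoding host, had a log2 difference of 0.85 (SE 0.68), and Eif4a2, the translation factor gene that holds Snora81, had 0.73 (SE 0.70).

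Of 4 imprinted hosts known from the brain 3 were tested, 2 with a higher and 1 with a lower fitted level and none called, and with median-of-ratios scaling 1 was higher and 2 were lower. Snhg14, on chromosome 7 with the Snord115 and Snord116 families, had 3.07 ± 2.38 TPM on the apoC-III ASO (SD, n = 5) and 0.839 ± 0.638 TPM on the control ASO (SD, n = 4), with a log2 difference of 1.04 (SE 0.40, unadjusted p = 0.00926 and adjusted p = 0.952 from limma-trend). All 17 RNAs within Snhg14 were listed at 0. Rian, a host on chromosome 12, had a log2 difference of 0.083 (SE 0.47).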

How the data were processed

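Total liver RNA was purified on RNeasy columns, depleted of rRNA and sequenced as stranded single-end libraries. The authors deposited TPM per gene, made with kallisto 0.43.1 against GRCm38 according to the submitters' processing notes, whereas the study's methods name STAR, featureCounts and a count test; those counts were not used here. The fragment length given to kallisto and the annotation release are not given in the sources used here. Lengths, hosts, positions and sequences came from GENCODE M21, which held 51633 of the 51912 identifiers. Genes with a mean of at least 1 TPM were tested with limma 3.58.1 (R 4.3.3) on log2(TPM + 1), which understates the change of low genes. Sequence, host and summary steps ran in Python 3.11.15 with pandas 2.3.3 and numpy 2.4.6, exact tests in scipy 1.17.1 and plots in matplotlib 3.10.9. On simulated data with 50 genes changed at each size among 4936, calls were made for 1 of those changed 1.5-fold, 9 of those changed 2-fold, 35 of those changed 4-fold and 48 of those changed 8-fold, beside 6 false calls. The noise was drawn for each gene apart, with no shift shared by a library such as control ASO replicate 4. These rates therefore need not hold for the livers, where Apoc3, 86.5% lower, was not called. The RNAs and lists were chosen with earlier results of these data known. Genes named were the highest RNAs of each class, those not overlapping or with the smallest p, those of the role lists, and the 2 smallest p of each other list. Separate mice were the replicates. Alternatives were other pseudocounts, filters, scalings, eBayes options and thresholds, array weights, a replicate block and each liver left out; 3 combinations of median-of-ratios scaling were chosen after seeing the data.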

Additional observations from a re-analysis of the deposited data

Results flagged for a closer look

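Dixon's test picked out 2 of 24 groups examined, where chance picks out about 1 in 20. Scarna2 in apoC-III ASO replicate 5 had 12.7 TPM, apart from the other 4 livers of its group at 23.2 to 27.0 TPM. Snora73b in apoC-III ASO replicate 1 had 125.6 TPM, apart from the other 4 at 25.3 to 54.4 TPM. After median-of-ratios scaling these livers had 20.3 and 80.4. The cause was not tested.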

How the results depend on the processing

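With TPM as deposited 0 of the 7 RNAs tested were called. The count was 1, Scarna6, with protein-coding rescaling, with quantile normalization and with median-of-ratios scaling without control ASO replicate 4. With each liver left out it was 0 to 1. The call was Snora23 without apoC-III ASO replicate 5 (adjusted p = 0.0235 from limma-trend), beside 17 of 5105 genes called there. Snora23 was listed at 0 in every control ASO liver and passed the minimum for testing only through 2 apoC-III ASO livers. Since a listed 0 is no measure of absence, nothing is concluded from this call. Every other alternative gave 0. Genes called among all tested ranged from 0 to 26 over the settings, against 11.

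The difference of Scarna10 was negative with array weights (-0.21), median-of-ratios scaling (-0.082), the same with a pseudocount of 0.1 (-0.093), with the replicate block (-0.058) and without control ASO replicate 4 (-0.084), and quantile normalization (-0.0096), and ranged from -0.40 to 0.52 with each liver left out. Snora73b was negative with array weights (-0.26), median-of-ratios scaling (-0.15), the same with a pseudocount of 0.1 (-0.16) and with the replicate block (-0.15), and ranged from -0.24 to 0.39 with each liver left out. Snora73a was at -0.20 with array weights, and Scarna2 ranged from -0.049 to 0.73 with each liver left out. The cause was not tested. The H/ACA box median was -0.23 with array weights. Snord17, Scarna13, Scarna6, the C/D box and Cajal body medians and the decrease of Apoc3 kept their direction in every alternative run for them, and the decrease of Apoc3 was 83.4% to 89.2% with each liver left out.

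Same-numbered livers of the 2 groups had deviations that correlated across genes at 0.017, 0.104, 0.126 and 0.057 (replicates 1 to 4) in TPM and at -0.0026, 0.183, 0.158 and 0.169 after median-of-ratios scaling. Not every pair was over 0.1 on either scale, so the numbers were not taken to pair the mice. The replicate block called 26 genes against 11, and 0 of the RNAs, and 3 of 8 livers in TPM and 5 of 8 after median-of-ratios scaling correlated best with their own number. Since TPM keeps no depth, the error from read numbers is unknown for each RNA.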

Other observations

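Beside the 149 RNAs the table held 1410 other genes annotated as snoRNA or scaRNA, under other symbols. Of these 17 were above 0 in at least 1 liver, among them copies of U3 (Rnu3a and Rnu3b1 to Rnu3b4), which is the C/D RNA needed for small-subunit rRNA processing. Of 11 tested, 10 had a higher and 1 a lower fitted level on the apoC-III ASO. The 216 nt entries of Rnu3b1, Rnu3b2, Rnu3b3 and Rnu3b4 are among the 10. They had the same TPM in every liver, so they stand for 1 measurement. Of the 11, 1 was called, beside 0.223% of all genes tested. This was the 214 nt copy of Rnu3a (log2 difference 2.68, adjusted p = 2.16e-07 from limma-trend). With median-of-ratios scaling it was not called (log2 difference 2.52, adjusted p = 0.858 from limma-trend), and 0 of the 11 were. That copy was listed at 108 TPM (apoC-III ASO replicate 1) and 98.4 TPM (apoC-III ASO replicate 4), and at 0 or at most 4.38e-102 TPM in the other 7 livers, while the 213 nt copy of Rnu3a had 133 and 120 TPM on average in the groups and a log2 difference of 0.05. The 214 nt copy passed the minimum for testing only through apoC-III ASO replicates 1 and 4. Reads of these near-identical copies also cannot be told apart with certainty, so nothing is concluded from the call. Of the 11 tested, 1 had no overlap between the groups in TPM, as Scarna6 had, namely Gm24119 (246 nt). It had 9.85 to 19.5 TPM on the apoC-III ASO and 0.653 to 8.21 TPM on the control ASO. Its log2 difference was 1.33 (SE 0.59, unadjusted p = 0.0237 from limma-trend), and it was not called. Over all genes tested 9 of 4936 (0.182%) were apart in that direction. The genes given here were named after their values were seen.

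Snora73a and Snora73b are equally long, so length cancels in the ratio of their TPM. In 9 of 9 livers the ratio of Snora73b to Snora73a was, within a relative gap of 0.0001, a fraction of whole numbers of at most 25. In apoC-III ASO replicates 1 to 5 it was 20 to 9, 17 to 9, 1 to 1, 19 to 15 and 6 to 5. In control ASO replicates 1 to 4 it was 25 to 7, 7 to 6, 25 to 17 and 5 to 2. The ratio was 1 to 2.22 on the apoC-III ASO and 1.17 to 3.57 on the control ASO, which overlapped. The read numbers behind these values are unknown.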
